A study of Homo sapiens with 24 samples.

Results

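The genes described here are 43 members of the interferon response and of antigen presentation, of 60675 genes in the count files. They were listed by symbol, from the sensors and transcription factors of the pathway to its induced antiviral genes and the class I presentation machinery, and all 43 were found in the annotation. The rule uses no measured value, but the list was chosen with earlier results of these data known. RNA-seq counts were available for 24 libraries, in 8 groups of 3, from LNCaP:C4-2 (labelled LNCaP:C42) and 22Rv1 human prostate cancer cells. LNCaP:C4-2 is a castrate-resistant line that is sensitive to the androgen receptor antagonist enzalutamide, and 22Rv1 is resistant to it and also makes variants of the androgen receptor. Cells were given pooled siRNAs, either directed at METTL3 (siMETTL3), the catalytic subunit of the enzyme that writes N6-methyladenosine in mRNA, or non-targeting (siSCR). All cells were kept in medium with charcoal-stripped serum, which is depleted of steroids, were transfected, were transfected again after 48 h, and then received ethanol vehicle or 1 nM of the synthetic androgen R1881 for 72 h. Each line is 1 cell line grown in culture without immune or stromal cells, and the labels do not say whether the 3 libraries of a group came from separate cultures, so that p-values measure the spread among these libraries only.

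Cells detect foreign or misplaced double-stranded RNA with sensors such as MDA5 (IFIH1) and RIG-I, which signal through IRF factors to switch on type I interferon. Secreted interferon binds its receptor, activates the kinases JAK1 and TYK2, and assembles a complex with STAT2 and IRF9 that binds the interferon-stimulated response element (ISRE) in the promoters of induced genes. Interferon gamma acts through JAK1 and IRF1, and raises the immunoproteasome, the peptide transporter and the HLA class I molecules with their light chain B2M. METTL3 is linked to this pathway since methylated adenosines affect whether a cell's own RNA is seen as double-stranded, and the comparisons below ask whether the genes moved with METTL3 depletion, with androgen, or between the lines.

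The ISRE core can be written as GAAANNGAAA. Either strand was searched from 250 bases before to 50 bases after each RefSeq gene start (GRCh38.p14). Of the 43 genes, 35 had such a window and 22 of those held the core, which is 62.9%, against 4.38% of all 27305 genes with a window and 3.57% of the 35116 windows. The gamma-activated sequence TTCNNNGAA was found in 11 of the 35, which is 31.4%, against 9.38% of all genes. A match describes letters in a window and not a site in use. Because 15 members passed the test for R1881 in at least 1 comparison below, the match nearest the gene start is shown with its surroundings for the 8 of them that held one, 5′ to 3′ on the gene's strand, with that match in capitals. OAS3, IFITM1, IFITM3, BST2 and B2M held 2 matches and IFIT5 held 3, some of them overlapping, and the further ones are not in capitals. The other 6 of the 14 with a window held none, and 14 of the 21 members with a window that never passed the test for R1881 held one.
OAS3 (chr12:112938452-112938481, plus strand): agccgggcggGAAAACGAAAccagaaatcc
IFIT5 (chr10:89414554-89414583, plus strand): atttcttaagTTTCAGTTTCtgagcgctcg
IFITM1 (chr11:314024-314053, plus strand): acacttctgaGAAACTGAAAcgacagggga
IFITM3 (chr11:320861-320920, minus strand): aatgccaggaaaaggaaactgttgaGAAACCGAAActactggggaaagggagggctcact
RSAD2 (chr2:6877607-6877666, plus strand): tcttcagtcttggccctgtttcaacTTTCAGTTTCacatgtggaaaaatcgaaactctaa
BST2 (chr19:17405720-17405779, minus strand): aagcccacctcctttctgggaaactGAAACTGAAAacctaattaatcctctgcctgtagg
PSMB8 (chr6:32844032-32844061, minus strand): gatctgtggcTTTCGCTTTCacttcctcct
B2M (chr15:44711354-44711413, plus strand): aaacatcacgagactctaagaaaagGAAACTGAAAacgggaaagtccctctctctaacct
In IFIT5, RSAD2 and PSMB8 the match shown lies on the opposite strand. The first base of the match shown is 4 to 12 bases before the gene start in OAS3, IFIT5, IFITM1 and PSMB8, 35 bases before it in IFITM3, and 124 to 145 bases before it in RSAD2, BST2 and B2M.

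The libraries held between 15716224 and 21306019 counts assigned to genes, with a median of 17671722, so that 3 counts, taken as the floor (no fold is given where a whole group lies at or under it), correspond to 0.141 to 0.191 CPM (counts scaled by library size). All 7 markers of prostate luminal epithelium were at 1 CPM or more in every group. Of 5 immune cell markers the summed level stayed between 0.446 and 2.14 CPM, and the T cell gene CD3E and the endothelial gene PECAM1 were at or near 0 in every library. Of 5 fibroblast and endothelial markers COL1A1 was at 15 to 71.9 CPM over both lines. PDGFRB and VWF were at 1 CPM or more in LNCaP:C4-2 and under 1 CPM in 22Rv1, and COL1A2 was at or near 0. In LNCaP:C4-2, siSCR R1881 replicate 1 and siMETTL3 vehicle replicate 1 stood apart from their group. Their counts differed from those of the other two libraries by a chi-square per degree of freedom of 27.2 to 37.2, against 2.89 and 3.81 between the other two, and their mitochondrial shares were 7.08%, against 9.73% and 9.69% in the other two, and 9.6%, against 6.89% and 7.03%. In 22Rv1 siMETTL3 vehicle replicate 1 (14.6 and 15.8, against 3.53) and siSCR vehicle replicate 3 (10.6 and 14.9, against 3.29) stood apart less. For LNCaP:C4-2 the fits were repeated without both set-apart libraries, a choice made after seeing the data. Without them R1881 called 6 of 38 members with each siRNA, against 16.8% of all genes with siSCR and 11.4% with siMETTL3.

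In the vehicle control libraries both lines expressed a core of the module at rest. The level of a gene relative to others is given as CPM per kilobase of exon. In LNCaP:C4-2, 27 of the 43 genes were at 1 or more on this scale and 11 were at 10 or more. In 22Rv1 these numbers were 22 and 6. The highest level in LNCaP:C4-2 was that of BST2 (tetherin, which holds budding virus at the cell surface), at 121 ± 7.93 (SD, n = 3), followed by HLA-C at 67.7 ± 8.02, IFITM3 at 53.2 ± 3.41, the RNA editing enzyme ADAR at 47.1 ± 2.9 and the ubiquitin-like modifier ISG15 at 44.2 ± 3.22. The ranges of IFITM3, ADAR and ISG15 lie close together, and their order was not tested. In 22Rv1 ISG15 was at 108 ± 8.18, ADAR at 54.3 ± 0.455, HLA-C at 31.9 ± 3.17, B2M at 29.8 ± 4.29 and IFITM3 at 21 ± 1.37, while BST2 was at 2.4 ± 0.125. HLA-C and B2M in 22Rv1 differed by less than their SDs.

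At the low end, OAS2 and XAF1 did not reach the count filter in either line. IFI44L, MX2 and RSAD2 did not reach it in LNCaP:C4-2, and OAS1, OASL, IFI27 and IFI44 did not reach it in 22Rv1, which left 38 and 37 members for tests within a line. The interferons themselves were at or near 0. No library held more than 4 counts of any of IFNB1, IFNE, IFNL1, IFNL2, IFNL3, IFNG and IFNK, and 4 of these 7 genes had 0 counts in all 12 LNCaP:C4-2 libraries. Such low counts limit reads and do not show that no interferon was made.

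**Figure D1:**
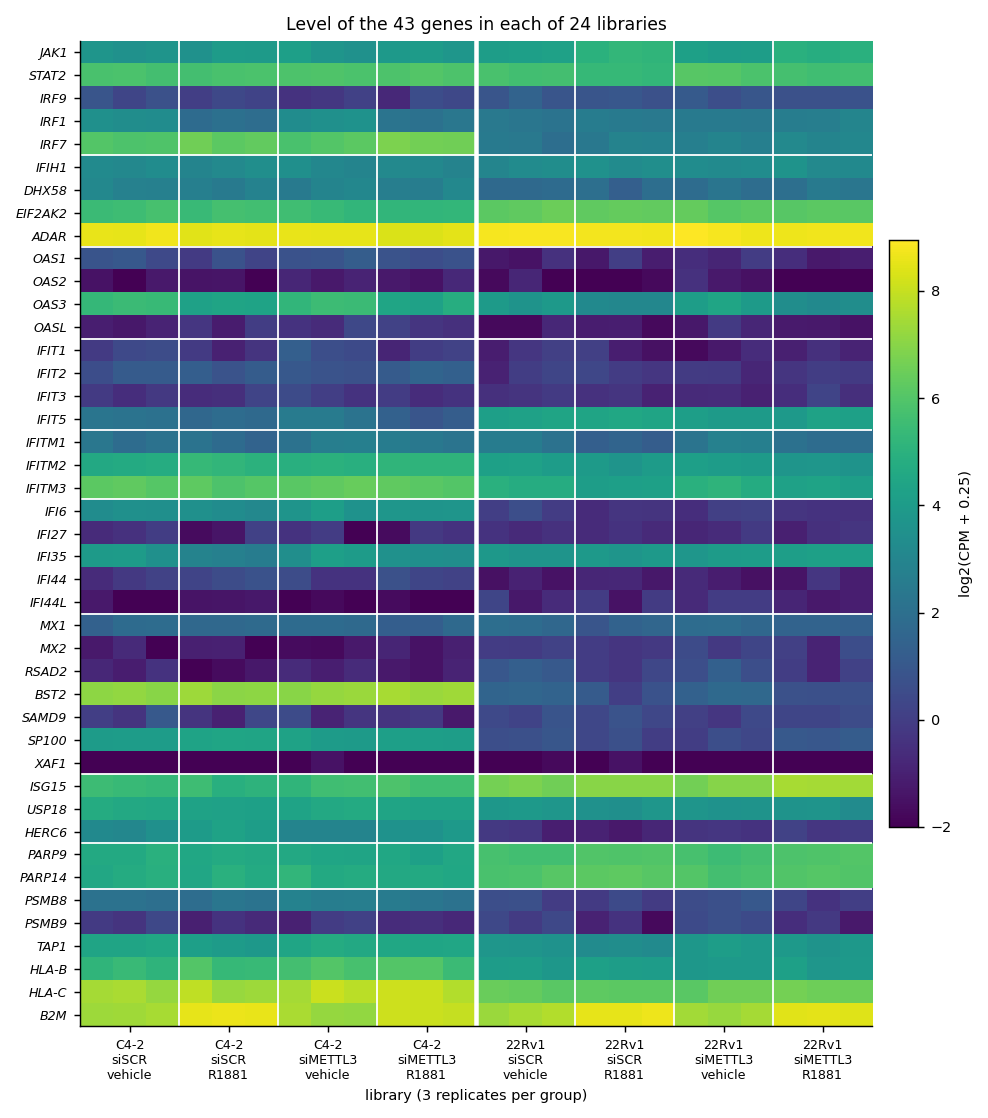
Heat map of the level of each of the 43 genes (rows, grouped by role) in each of the 24 libraries (columns, 3 per group), as log2(CPM + 0.25). BST2, IRF7, HERC6, SP100 and IFI6 are brighter in all LNCaP:C4-2 libraries than in all 22Rv1 libraries, and B2M is brighter with R1881 in both lines.

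With METTL3 depletion 1 sparsely counted member passed the test in 1 of 4 comparisons. METTL3 itself was reduced. In LNCaP:C4-2 it was at 31.2, 28.5 and 26.5 CPM in the siSCR vehicle libraries and at 19.9, 19.8 and 17.5 CPM in the siMETTL3 vehicle libraries. The groups did not overlap, and the log2 fold change was -0.61 ± 0.11 (SE; adjusted p = 0.013, edgeR). With R1881 the log2 fold change of METTL3 in this line was -0.57 (adjusted p = 0.026), just short of the 1.5-fold threshold. In 22Rv1 METTL3 fell by 0.89 on the log2 scale with vehicle (adjusted p = 1.5e-06) and by 1.18 with R1881 (adjusted p = 1.3e-08).

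A gene was called when its Benjamini-Hochberg adjusted p in edgeR's quasi-likelihood test was under 0.05 and its fold change at least 1.5. In LNCaP:C4-2 with vehicle, siMETTL3 against siSCR called 0 of 38 members, where 1.2% of all 16435 genes tested were called. At an unadjusted p under 0.05 there were 9 members, against 16% of all genes, DESeq2 called 1 (PSMB8, 0.65), and the median log2 fold change of the members was 0.08. With R1881 0 of 38 were called against 0.7% of all genes, with 13 members and 28.6% of all genes at an unadjusted p under 0.05, 1 called by DESeq2 (IFI35, 0.71) and a median of 0.13. In 22Rv1 with vehicle 0 of 37 were called against 0.202% of all genes. Here 6 members had an unadjusted p under 0.05, against 14.6% of all genes, DESeq2 called 0, and the median was -0.01.

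With R1881 in 22Rv1, 1 of 37 members was called against 3.29% of all genes, 13 had an unadjusted p under 0.05 against 32% of all genes, and the median was -0.01. The called member was HERC6, a large HECT-type protein related to the ISG15 ligase HERC5. HERC6 was at 0.269, 0.167 and 0.319 CPM in the siSCR R1881 libraries and at 0.852, 0.576 and 0.665 CPM in the siMETTL3 R1881 libraries. These are a few counts per library, and although the groups did not overlap, the call (1.42 ± 0.48, adjusted p = 0.048) was lost when any 1 of the 6 libraries was left out, with DESeq2, without the count filter and in the blocked fit. Over the alternatives other than leaving out 1 library its adjusted p ran from 0.047 to 0.081.

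The intervals of the knockdown effect were narrow for some members. ADAR, whose editing marks double-stranded RNA as the cell's own, had 95% intervals of the log2 fold change of -0.28 to 0.10 and -0.30 to 0.08 in LNCaP:C4-2, with vehicle and R1881, and of -0.17 to 0.14 and -0.22 to 0.08 in 22Rv1. The sensor IFIH1 had intervals of -0.46 to 0.31 and -0.51 to 0.27 in LNCaP:C4-2 and of -0.23 to 0.42 and -0.41 to 0.24 in 22Rv1. These 8 intervals lie inside the 1.5-fold threshold of 0.585 on the log2 scale. That of B2M in LNCaP:C4-2 with R1881, from -0.75 to -0.29, crosses it. Sparsely counted members such as IFIT1 were estimated less finely. The IFIT1 estimate of -1.32 ± 0.68 in 22Rv1 with vehicle was not called, and a change of that size is not excluded.

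Some members differed by less than 1.5-fold with an adjusted p under 0.05. In 22Rv1 with R1881 these were STAT2, which carries the transactivation domain of the interferon-activated complex (0.34, adjusted p = 0.011), ISG15 (0.44, adjusted p = 0.0031), the peptide transporter subunit TAP1 (0.51, adjusted p = 0.0097), HLA-C (0.35, adjusted p = 0.028) and IFI35 (0.35, adjusted p = 0.032). With HERC6 that made 6 of 37 members at an adjusted p under 0.05 in this comparison, against 16.2% of all genes. ISG15 was at 129.7, 129.5 and 127 CPM in the siSCR R1881 libraries and at 179.9, 178 and 171 CPM in the siMETTL3 R1881 libraries. All 3 siMETTL3 libraries were above all 3 siSCR libraries. In LNCaP:C4-2 with R1881 B2M was at 369, 390.1 and 386 CPM with siSCR and at 274, 266 and 256 CPM with siMETTL3, again without overlap but in the other direction (-0.52 ± 0.10, adjusted p = 0.026).

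In LNCaP:C4-2 the counts for siMETTL3 turned on the libraries that stood apart. Without both, 2 of 38 members were called with vehicle, IFITM1 (0.60) and HLA-B (0.66), against 4.18% of all genes. With R1881 5 members were called against 11.3% of all genes, with ISG15 (0.69), HLA-C (0.65), IFI35 (0.78) and the membrane-bound viral entry inhibitor IFITM1 (0.79) higher and IFIT5 (-0.71), a binder of viral RNA ends, lower. With vehicle, the 6 fits that each left out 1 library of the comparison called 0 members, and 0 to 339 of all genes. The 2 calls with vehicle thus needed both libraries left out. With R1881, leaving out siSCR R1881 replicate 1 alone gave the same count of 5, against 8.89% of all genes. That library had the highest level of its group in ISG15 (46.9, against 29.8 and 33.7 CPM in the other two), HLA-C (242, against 154 and 160.5 CPM) and HLA-B (65.1, against 40.3 and 41.6 CPM).

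**Figure D2:**
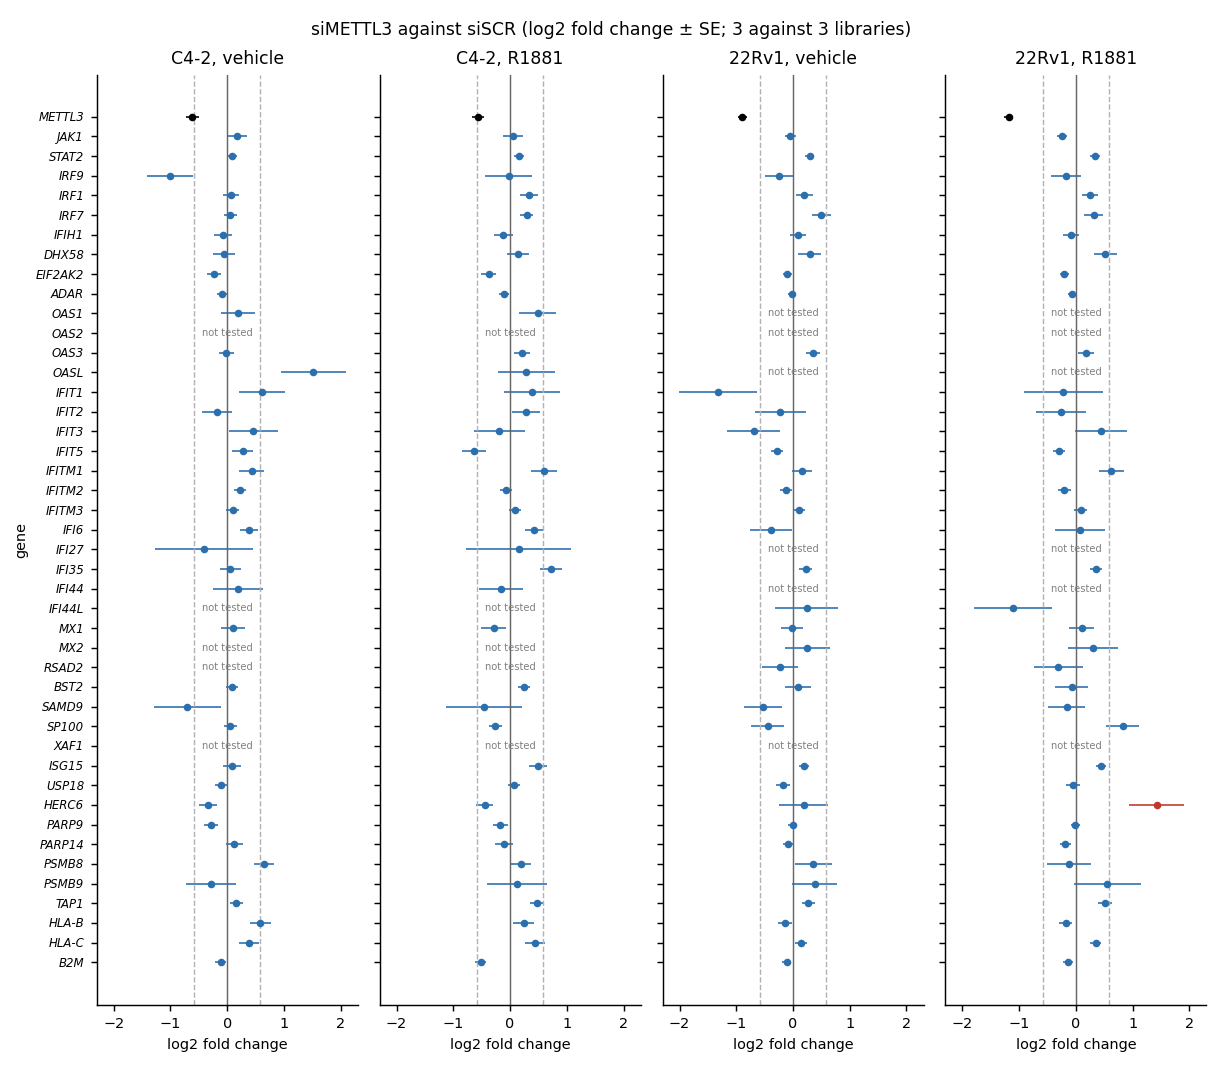
Log2 fold change (horizontal axis, ± SE) of METTL3 (black) and of each of the 43 genes with siMETTL3 against siSCR, in 4 panels for both lines and treatments, 3 against 3 libraries each. Dashed lines mark 1.5-fold. METTL3 lies to the left in every panel, from -0.57 to -1.18, and HERC6 in 22Rv1 with R1881 (red) is the only member called.

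R1881 moved single members of the module in both directions. The share of members called ran from below that of all genes to above it. In LNCaP:C4-2 with siSCR, 5 of 38 members were called (13.2%) against 15.1% of all genes: 2 higher, against 7.39% of all genes, and 3 lower, against 7.72%. In LNCaP:C4-2 with siMETTL3, 6 of 38 were called (15.8%) against 10.6% of all genes, 3 higher against 5.09% and 3 lower against 5.54%. In 22Rv1 with siSCR, 8 of 37 were called (21.6%) against 13.8% of all genes, 2 higher against 4.19% and 6 lower against 9.64%. In 22Rv1 with siMETTL3, 10 of 37 were called (27%) against 13.5% of all genes, 3 higher against 4.18% and 7 lower against 9.29%. The 4 medians over the members tested lay between -0.24 and 0.04 on the log2 scale. In LNCaP:C4-2 with siSCR the all-gene calls were 1215 higher and 1269 lower with TMM scaling and 926 higher and 1800 lower with library size alone, where the median of all genes was -0.15 instead of -0.03, while the members called were 2 higher and 3 lower with both. In these bulk libraries a lower level in every cell and fewer cells expressing a gene cannot be told apart.

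Among the signalling genes, the kinase JAK1 (chromosome 1, 64833229 to 64966504, minus strand) responded in 22Rv1. In the siSCR libraries it was at 16.8, 18 and 19.1 CPM with vehicle and at 31.8, 37.6 and 35.1 CPM with R1881. The R1881 libraries all lay above the vehicle libraries, at 0.95 ± 0.09 on the log2 scale (adjusted p = 5.3e-08), and with siMETTL3 the log2 fold change was 0.75 (adjusted p = 2.1e-06). In LNCaP:C4-2 JAK1 was at 12.8, 11.4 and 12.3 CPM with vehicle and at 11.4, 15.8 and 15.5 CPM with R1881, which overlapped through the set-apart replicate 1 (0.22 ± 0.17, adjusted p = 0.39). Without both set-apart libraries the value was 0.37 (adjusted p = 0.026), under the fold threshold.

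IRF1 (chromosome 5, 132481609 to 132490798, minus strand), a transcription factor that drives HLA class I and immunoproteasome genes, moved in LNCaP:C4-2. With siSCR it was at 11.1, 9.93 and 9.66 CPM with vehicle and at 3.26, 3.81 and 3.53 CPM with R1881. The groups were far apart, at -1.54 ± 0.15 on the log2 scale (adjusted p = 1.9e-06), and with siMETTL3 the value was -1.29 (adjusted p = 1.3e-05). In 22Rv1 IRF1 was at 5.19, 4.6 and 4.25 CPM and at 5.86, 5.45 and 5.05 CPM in the same siSCR groups, which overlapped (0.21 ± 0.15, adjusted p = 0.31). IRF7, the factor that amplifies interferon production, rose in LNCaP:C4-2 with siMETTL3 (0.67, adjusted p = 0.00066), a call that was lost without siMETTL3 vehicle replicate 1 and, at 0.56, without both set-apart libraries. With siSCR its log2 fold change was 0.43 (adjusted p = 0.013), under the fold threshold. STAT2 in 22Rv1 was at -0.41 with siSCR (adjusted p = 0.00062), also under it, and IRF9 was called in no R1881 comparison.

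None of the 4 sensors and double-stranded RNA binding proteins, IFIH1, DHX58 (LGP2), the kinase EIF2AK2 (PKR) and ADAR, was called with R1881 in either line. Their log2 fold changes ran from -0.21 to 0.24 over the 4 comparisons. ADAR with siSCR was at 382, 377 and 422 CPM with vehicle and 349.5, 377 and 363 CPM with R1881 in LNCaP:C4-2, at -0.12 ± 0.08 (adjusted p = 0.30).

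Of the oligoadenylate synthetases, which make the signal that activates RNase L, OAS3 (chromosome 12, 112938352 to 112973249, plus strand) fell in all 4 R1881 comparisons. In LNCaP:C4-2 with siSCR it was at 39.2, 43.7 and 41.8 CPM with vehicle and at 18.8, 20.9 and 20.1 CPM with R1881. In 22Rv1 with siSCR it was at 15.5, 12 and 14.3 CPM with vehicle and at 8.82, 8.17 and 8.13 CPM with R1881. In neither line did the groups overlap, and the log2 fold changes were -1.07 ± 0.14 (adjusted p = 4.8e-05) and -0.74 ± 0.14 (adjusted p = 0.00022). With siMETTL3 they were -0.85 (adjusted p = 0.00049) and -0.91 (adjusted p = 1.4e-05). The difference between the lines in this response was 0.32 with a 95% interval of -0.09 to 0.74 (adjusted p = 0.30). OAS1 and OASL, tested in LNCaP:C4-2 only, were not called.

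In the IFIT family, binders of viral RNA, only IFIT5 in LNCaP:C4-2 with siMETTL3 was called. It was at 5.67, 5.64 and 4.31 CPM with vehicle and at 2.39, 1.59 and 2.07 CPM with R1881, without overlap, at -1.35 ± 0.20 (adjusted p = 0.00019). With siSCR the value was -0.44 ± 0.19 (adjusted p = 0.11). IFIT1, IFIT2 and IFIT3 were at 2.67 CPM or less in every library and were called nowhere with R1881.

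The IFITM proteins block virus entry at the membrane. IFITM1 and IFITM3 fell in 22Rv1 with both siRNAs. IFITM3 with siSCR was at 30.4, 27.3 and 27.2 CPM with vehicle and at 16.6, 18 and 18.3 CPM with R1881, and IFITM1 was at 5.87, 5.88 and 4.14 CPM and at 2.21, 2.67 and 2.13 CPM. Neither gene overlapped between the groups, at -0.69 ± 0.11 (adjusted p = 3.0e-05) and -1.19 ± 0.20 (adjusted p = 0.00011). In LNCaP:C4-2 IFITM3 was at -0.11 ± 0.11 (adjusted p = 0.48). IFITM2 was at 0.52 in LNCaP:C4-2 (adjusted p = 0.0015) and at -0.31 in 22Rv1 (adjusted p = 0.032), both under the fold threshold. The IFITM genes are near-identical neighbours on chromosome 11. IFITM1 shares 32.5% of its exon bases with the IFITM2 annotation, and reads that fit more than one of them are not counted, so their split is uncertain.

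IFI35, an interferon-induced leucine zipper protein on chromosome 17, fell in LNCaP:C4-2 with siSCR. It was at 15.5, 15.8 and 11.1 CPM with vehicle and at 7.22, 6.65 and 5.75 CPM with R1881, without overlap, at -1.12 ± 0.20 (adjusted p = 0.00059). With siMETTL3 it was at 10.4, 18 and 15.9 CPM and at 11.2, 10.7 and 10.3 CPM, which overlapped through replicate 1 of the vehicle group, at -0.45 ± 0.19 (adjusted p = 0.12). Without both set-apart libraries the siMETTL3 value was -0.65 and was called. In 22Rv1 IFI35 stayed between 12.3 and 14.6 CPM in the siSCR libraries (0.10 ± 0.11, adjusted p = 0.51).

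Among the other effectors, BST2 and RSAD2 (viperin, which makes a chain-terminating nucleotide) fell in 22Rv1 with both siRNAs. BST2 with siSCR was at 2.65, 2.84 and 2.56 CPM with vehicle and at 1.99, 0.778 and 1.43 CPM with R1881. RSAD2 was at 1.71, 2.25 and 1.85 CPM and at 0.699, 0.556 and 1.01 CPM. Both were low and did not overlap, at -0.94 ± 0.26 (adjusted p = 0.0083) and -1.35 ± 0.35 (adjusted p = 0.0052), and the BST2 call was lost without siSCR R1881 replicate 2. With siMETTL3 BST2 was at -1.09 (adjusted p = 0.0026) and RSAD2 at -1.43 (adjusted p = 0.0051), the latter lost without siMETTL3 vehicle replicate 2. In LNCaP:C4-2 BST2 was at 136, 144 and 126 CPM with vehicle and at 159.7, 132 and 134 CPM with R1881, which overlapped (0.06 ± 0.11, adjusted p = 0.72). The nuclear body protein SP100 rose in 22Rv1 with siMETTL3 (0.81 ± 0.29, adjusted p = 0.034), a call lost with library size alone, without the count filter and in 5 of 6 fits without 1 library. MX1, MX2, SAMD9 and IFI6 were not called in the R1881 comparisons in which they were tested.

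Of the ISG15 system HERC6 (chromosome 4, 88378739 to 88443111, plus strand) rose in LNCaP:C4-2. With siSCR it was at 8.83, 8.05 and 10.9 CPM with vehicle and at 15.9, 19.5 and 16.7 CPM with R1881. The R1881 libraries lay above the vehicle libraries, at 0.90 ± 0.15 (adjusted p = 0.00044), and with siMETTL3 the value was 0.80 (adjusted p = 0.002). ISG15 was at 0.33 in 22Rv1 with siSCR (adjusted p = 0.0058) and at 0.58 with siMETTL3 (adjusted p = 2.0e-05), under the fold threshold. USP18, the protease that removes ISG15, was at -0.38 in LNCaP:C4-2 with siSCR (adjusted p = 0.019), and PARP9 and PARP14, which modify STAT signalling, were at 0.28 and 0.24 in 22Rv1 with siSCR (adjusted p = 0.0097 and 0.039).

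Antigen presentation split by component. B2M (chromosome 15, 44711477 to 44718877, plus strand), without which class I molecules do not reach the surface, rose in all 4 R1881 comparisons. With siSCR it was at 164, 167 and 184 CPM with vehicle and at 369, 390.1 and 386 CPM with R1881 in LNCaP:C4-2. In 22Rv1 it was at 156, 180.2 and 208 CPM with vehicle and at 369, 375 and 405 CPM with R1881. The vehicle and R1881 groups were far apart in both lines, at 1.14 ± 0.10 (adjusted p = 5.3e-07) and 1.07 ± 0.08 (adjusted p = 1.4e-09). With siMETTL3 the values were 0.74 (adjusted p = 7.2e-05) and 1.04 (adjusted p = 2.3e-09), and these 4 calls were kept in every alternative run.

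The heavy chains did not follow. HLA-C was at 176, 186 and 147 CPM with vehicle and at 242, 154 and 160.5 CPM with R1881 in LNCaP:C4-2 with siSCR, which overlapped (0.12 ± 0.17, adjusted p = 0.67; -0.10 without both set-apart libraries), and in 22Rv1 it was at -0.14 ± 0.10 (adjusted p = 0.33). HLA-B was at 0.38 ± 0.19 (adjusted p = 0.16; 0.13 without both set-apart libraries) and 0.14 ± 0.12 (adjusted p = 0.42). The class I genes are so alike that reads shared among them are not counted, and their split is uncertain. The immunoproteasome subunit PSMB9 fell in 22Rv1, where with siSCR it was at 1.04, 0.695 and 1.04 CPM with vehicle and at 0.269, 0.5 and 0.0531 CPM with R1881, or 5, 9 and 1 counts, the last under the floor (-1.75 ± 0.51, adjusted p = 0.011). With siMETTL3 it was at -1.57 (adjusted p = 0.011), and both calls were lost without replicate 3 of the R1881 group. PSMB8 was called in 22Rv1 with siMETTL3 (-0.95 ± 0.35, adjusted p = 0.042) and lost with DESeq2, without the count filter, in the blocked fit and in 4 of 6 fits without 1 library. PSMB8 shares 21.2% of its exon bases with the antisense gene PSMB8-AS1, and counting did not use strand, so reads from both cannot be told apart. TAP1 fell short of the fold threshold in both lines with siSCR, at -0.42 (adjusted p = 0.016) and -0.41 (adjusted p = 0.013).

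**Figure D3:**
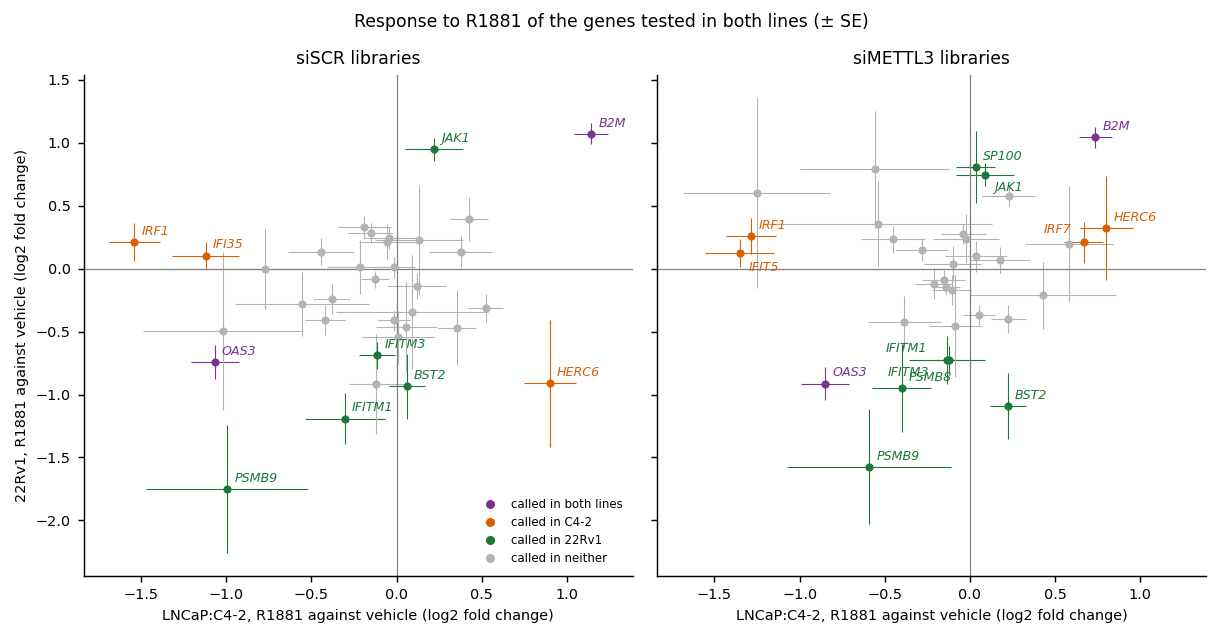
Log2 fold change with R1881 against vehicle in LNCaP:C4-2 (horizontal axis) and in 22Rv1 (vertical axis), ± SE, for the members tested in both lines, with the siSCR libraries on the left and the siMETTL3 libraries on the right. B2M lies above 0.7 and OAS3 below -0.7 on both axes in both panels, while JAK1 is called in 22Rv1 and IRF1 in LNCaP:C4-2.

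Whether METTL3 depletion changed the response to R1881 was tested as an interaction, called at an adjusted p under 0.05. In LNCaP:C4-2 0 of 38 members were called, and 0% of all genes. There were 3 members at an unadjusted p under 0.05, against 12.4% of all genes, and 0 with DESeq2. These 3 were IFIT5 (-0.91, 95% interval -1.55 to -0.26, adjusted p = 0.31), IFI35 (0.67, 0.05 to 1.30, adjusted p = 0.37) and B2M (-0.41, -0.73 to -0.08, adjusted p = 0.34). In 22Rv1 0 of 37 were called against 0.0168% of all genes, with 1 at an unadjusted p under 0.05 (SP100, 1.27, adjusted p = 0.80), against 6.16% of all genes, and 0 with DESeq2. A response called with one siRNA and not with the other, as for IFIT5 and IFI35, was therefore not shown to differ between them.

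The response to R1881 with siSCR differed between the lines for 10 of 41 members (24.4%) at an adjusted p under 0.05, against 16.8% of all genes, 4 with a higher and 6 with a lower log2 fold change in 22Rv1. With library size alone the split was 6 and 5, and that of all genes went from 1513 and 1753 to 1966 and 1548. The largest of these differences were in HERC6 (-1.81 ± 0.45, adjusted p = 0.0052), IRF1 (1.75 ± 0.20, adjusted p = 3.2e-07), IFI35 (1.22 ± 0.22, adjusted p = 0.0003) and BST2 (-0.997 ± 0.245, adjusted p = 0.0052). IRF1 and IFI35 fell in LNCaP:C4-2 and not in 22Rv1. HERC6 rose in LNCaP:C4-2, where it was at 15.9 to 19.5 CPM with R1881, while in 22Rv1 it was at 0.319 CPM or less with R1881, close to the floor. B2M differed by -0.07 between the lines with a 95% interval of -0.36 to 0.21.

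**Figure D4:**
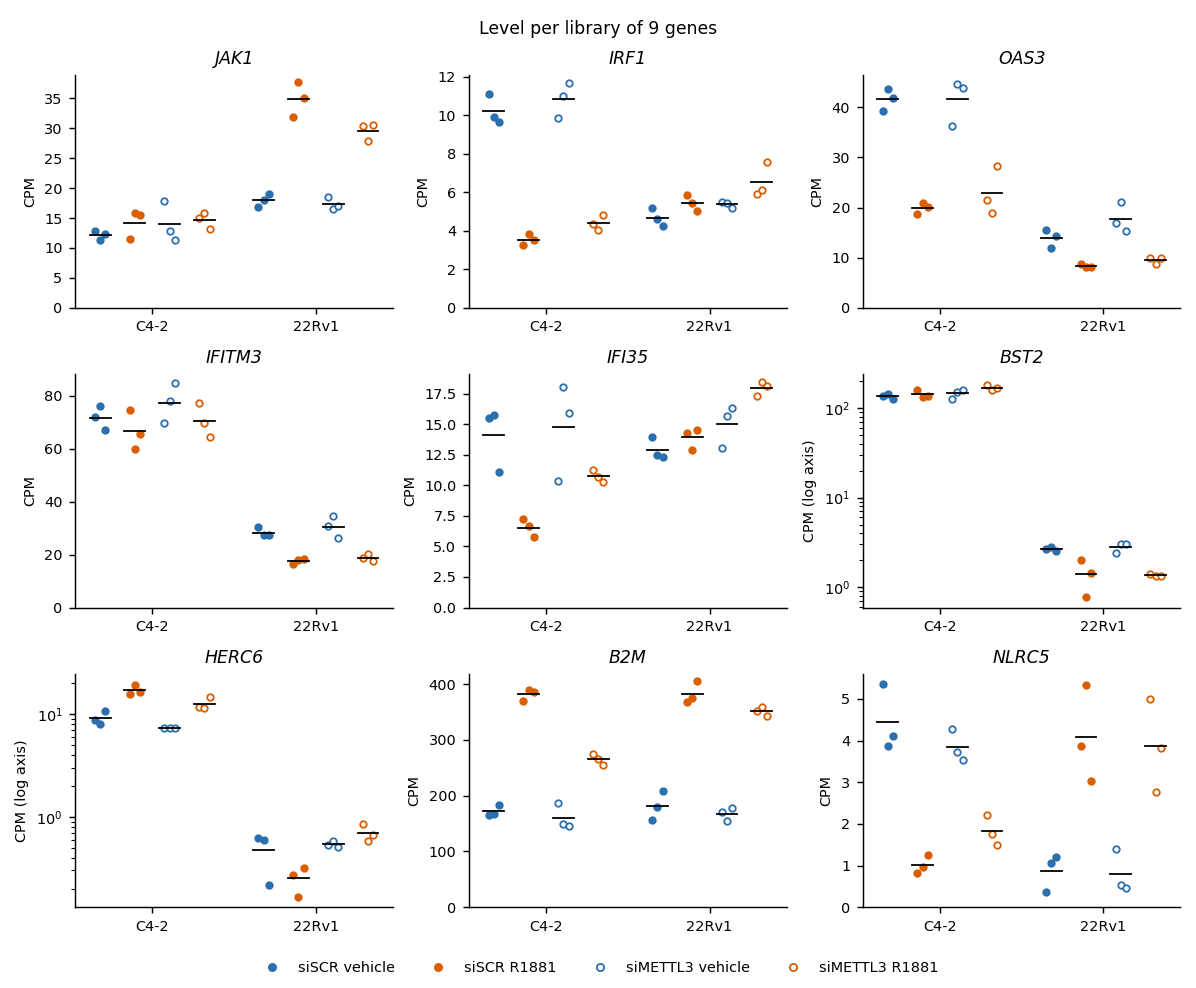
Level in CPM (vertical axes, logarithmic for BST2 and HERC6) of 8 members and of NLRC5 in each library, with filled points for siSCR, open points for siMETTL3, blue for vehicle, orange for R1881 and a bar for each group's mean. R1881 raises the bars of B2M in the siSCR libraries of both lines, lowers IRF1 in LNCaP:C4-2 alone, raises JAK1 in 22Rv1, where alone it was called, and moves NLRC5 in opposite directions.

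A difference between the lines in the knockdown effect was called for no member. With vehicle 0 of 41 were called against 0.458% of all genes, with 6 members and 11.5% of all genes at an unadjusted p under 0.05 and 0 with DESeq2. With R1881 0 of 41 were called against 0.0926% of all genes, with 3 members and 7.56% of all genes at an unadjusted p under 0.05 and 2 with DESeq2, SP100 (1.11) and HERC6 (1.90), both sparsely counted in 22Rv1. Without both set-apart libraries the counts were 1 (HLA-B) and 2 (SP100 and HERC6). No member was called in any fit without 1 library. Over all genes those fits called 14 to 308 with vehicle and 1 to 25 with R1881.

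Levels at rest differed between the lines for a share of the members near that of all genes. In the siSCR vehicle libraries 25 of 41 members (61.0%) were called between 22Rv1 and LNCaP:C4-2, against 59.2% of all genes, 8 higher in 22Rv1 against 31.2% and 17 lower against 27.9%. With R1881 30 of 41 (73.2%) were called against 60.1% of all genes, 12 higher against 32.6% and 18 lower against 27.5%. The median of all genes was 0.03 and 0.09 on the log2 scale with TMM scaling and 0.18 and 0.29 with library size alone, so differences near these values depend on the scaling.

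Genes lower in 22Rv1 included the widest differences of the module. BST2 was at 136, 144 and 126 CPM in LNCaP:C4-2 and at 2.65, 2.84 and 2.56 CPM in 22Rv1, or -5.65 ± 0.15 on the log2 scale (adjusted p = 1.6e-21). IRF7 was at 64.4, 58.7 and 60.0 CPM against 5.51, 5.19 and 3.65 CPM (-3.67 ± 0.15, adjusted p = 7.5e-18). HERC6, SP100 and the mitochondrial antiapoptotic protein gene IFI6 were at -4.25, -3.50 and -3.48. No library of one line overlapped the other line for these 5 genes. The presentation genes HLA-B (-1.26), HLA-C (-1.09), PSMB8 (-1.82) and TAP1 (-0.74) were lower as well, as were OAS1, OAS3, IFIT2, IFITM3, IFI44, DHX58, IRF1 and USP18, while B2M was at 0.08 ± 0.09 (adjusted p = 0.45).

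Genes higher in 22Rv1 were fewer. ISG15 was at 44.8, 41.5 and 38.7 CPM in LNCaP:C4-2 and at 101, 110.1 and 94.7 CPM in 22Rv1, without overlap (1.29 ± 0.13, adjusted p = 1.8e-09). IFIT5 (2.19), PARP9 (0.92), PARP14 (1.19) and EIF2AK2 (0.71) were higher too, PARP9 and PARP14 being neighbours on chromosome 3. RSAD2 (2.44), MX2 (2.01) and IFI44L were higher from low levels, and IFI44L was counted at 3, 0 and 0 reads in LNCaP:C4-2 and at 19, 3 and 7 in 22Rv1. With R1881 the called set also held JAK1 (1.29), IRF9 (0.80), IFI35 (1.09), IFITM2 (-1.34) and OASL (-1.63), and IRF1 was on the other side, at 0.63 ± 0.15 (adjusted p = 0.00045) after -1.12 ± 0.13 with vehicle. Without both set-apart libraries 26 members were called with R1881, all of them among the 30, and IRF1, IRF9, OASL and IFI44L were lost. Of 6 fits without 1 library, IRF9 was kept in 2, OASL in 3 and IFI44L in 1. IRF9 shares 48.4% of its exon bases with another annotated gene on the same strand, and fragments that fit both are not counted. The differences between the lines and the R1881 responses share libraries and are not independent.

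**Figure D5:**
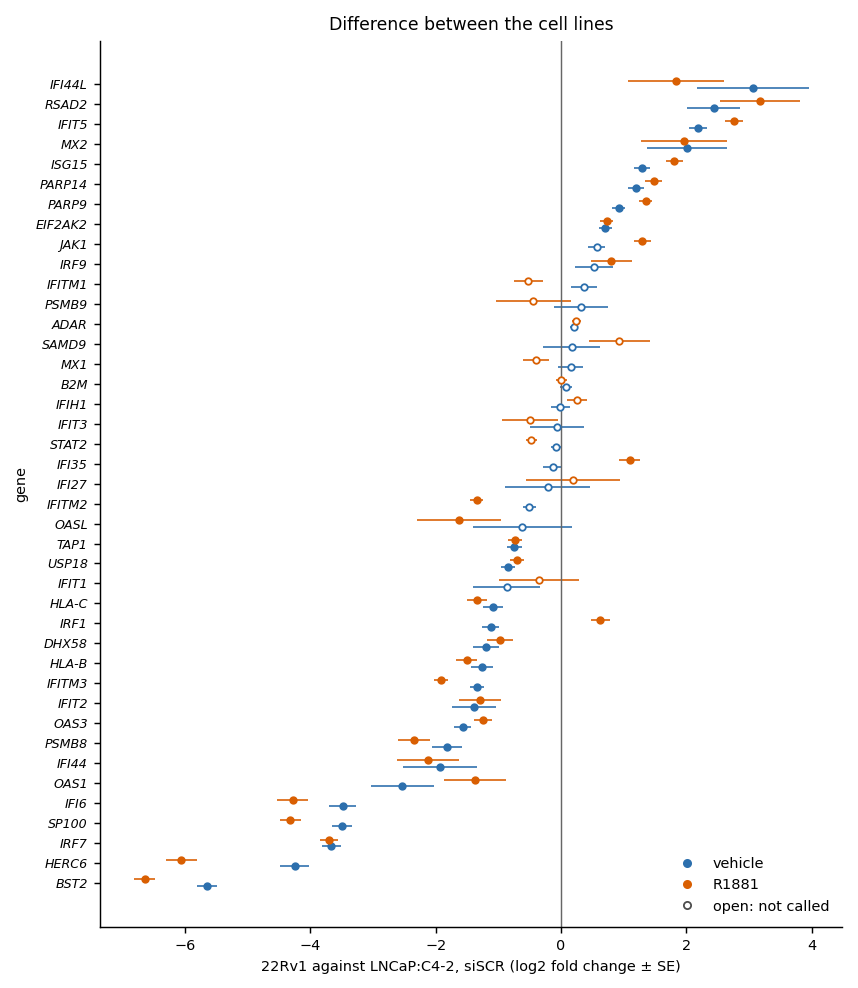
Log2 difference between 22Rv1 and LNCaP:C4-2 (horizontal axis, ± SE) in the siSCR libraries for the 41 members tested, sorted by the value with vehicle (blue) and with the value with R1881 beside it (orange). Filled points were called and open points were not. BST2 and HERC6 lie furthest to the left, at -5.65 and -4.25 with vehicle, and IRF1 crosses 0 between vehicle and R1881.

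Beyond the 43 genes, 70 other genes of the pathway were listed, of which 53 were tested in LNCaP:C4-2 and 51 in 22Rv1. With siMETTL3 against siSCR 0 of them were called in any of the 4 comparisons, against 0.202% to 3.29% of all genes. At an unadjusted p under 0.05 there were 11 (vehicle) and 23 (R1881) in LNCaP:C4-2, against 16% and 28.6% of all genes. In 22Rv1 there were 7 and 15, against 14.6% and 32%. With R1881 and siSCR 14 of 53 (26.4%, against 15.1% of all genes) were called in LNCaP:C4-2, 6 higher against 7.39% and 8 lower against 7.72%. In 22Rv1 11 of 51 (21.6%, against 13.8%) were called, 6 higher against 4.19% and 5 lower against 9.64%. With R1881 and siMETTL3 these counts were 11 (20.8%, against 10.6%) and 10 (19.6%, against 13.5%).

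The receptors of type I interferon, IFNAR1 and IFNAR2, were called in no R1881 comparison. The gamma receptor subunit IFNGR1 rose in 22Rv1 (0.69 with siSCR). IL10RB, shared by the interleukin 10 and lambda receptors, rose in LNCaP:C4-2 with siSCR (0.85) and was not called there with siMETTL3. The interaction of R1881 and siMETTL3 for IL10RB in LNCaP:C4-2 was -0.84 and was not called (adjusted p = 0.30, edgeR). Its responses with the siRNAs were therefore not shown to differ. The lambda receptor IFNLR1 was at 9.56, 11.8 and 10.2 CPM in 22Rv1 and at 0.376 CPM or less in LNCaP:C4-2 siSCR vehicle libraries. Of the kinases and factors JAK2, TYK2, IRF2 and IRF3, IRF2 alone was called with R1881, in 22Rv1 with siSCR (0.59).

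Sensors and adaptors moved one by one. TLR3, the endosomal sensor of double-stranded RNA, fell in LNCaP:C4-2 from 6.68, 5.42 and 6.65 CPM to 0.829, 2.00 and 1.74 CPM with siSCR (-2.04, adjusted p = 7.4e-05) and by 1.89 with siMETTL3. TMEM173 (STING), the adaptor for cytosolic DNA, rose there (1.22, adjusted p = 0.00018). In the 3 siSCR vehicle libraries of 22Rv1 it was counted at 0, 0 and 0 reads, against 75, 58 and 74 in LNCaP:C4-2. The DNA sensor MB21D1 (cGAS) was at or near 0 in both lines. TBK1, the kinase downstream of both, rose in 22Rv1 (0.65 with siSCR), and DDX58 (RIG-I) fell there with siMETTL3 (-0.59).

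NLRC5, the transactivator of HLA class I genes, moved in opposite directions. With siSCR it was at 5.35, 3.86 and 4.11 CPM with vehicle and at 0.829, 0.969 and 1.27 CPM with R1881 in LNCaP:C4-2. In 22Rv1 it was at 0.364, 1.07 and 1.20 CPM with vehicle and at 3.87, 5.34 and 3.03 CPM with R1881. Groups overlapped in neither line, at -2.11 (adjusted p = 1.2e-05) and 2.21 (adjusted p = 6.3e-05), and the difference between the lines was 4.32 ± 0.48 (95% interval 3.30 to 5.34, adjusted p = 2.4e-07). With siMETTL3 the values were -1.06 and 2.27. TAPBP, which loads peptide onto class I molecules, fell in 22Rv1 (-0.68 with siSCR).

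HERC5, the ligase that attaches ISG15, rose in LNCaP:C4-2 from 1.16, 0.966 and 1.39 CPM to 6.87, 7.94 and 8.55 CPM with siSCR (2.72, adjusted p = 3.7e-07), while UBA7, the enzyme that activates ISG15, fell there (-0.95). HERC5 also rose in 22Rv1 with siSCR (1.03). The exonuclease ISG20 rose in all 4 R1881 comparisons and CMPK2, a nucleotide kinase that neighbours RSAD2, fell in all 4. LGALS3BP fell in all 4, and LY6E fell in 22Rv1 (-0.71 with siSCR) while in LNCaP:C4-2 it was at 0.53, under the fold threshold.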

How the data were processed

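RNA-seq was made from 24 libraries. The deposited values are raw fragment counts, which the authors obtained with featureCounts 1.5.0-p1 on the Ensembl 83 annotation after adapter trimming (Trim Galore) and STAR alignment to the GRCh38 build, and they were used unchanged. No strand setting is stated for counting, and fragments that fit more than 1 gene are left out by default, which affects overlapping and near-identical genes. Groups and replicate numbers came from the labels. Within a line, 12 libraries were fitted with 4 group means in edgeR 4.0.16 (R 4.3.3) by the quasi-likelihood test, with TMM scaling, a filter on low counts and Benjamini-Hochberg adjustment over all genes tested. Comparisons of the lines used all 24 libraries and 8 means. Intervals are 95% intervals from the estimate and SE of the same fit, with 8 residual degrees of freedom within a line and 16 over both lines. The test does not use these degrees of freedom alone, so an interval and its p-value need not agree. The fits were tested on simulated data. Alternatives were DESeq2 1.42.0, other size factors, library size alone, no filter, no fold threshold, a replicate block and leaving out libraries. The text names the 43 members, METTL3 and, of the other pathway genes, receptors, kinases, factors, sensors and genes called. Some pathway genes enter the counts and are not reported here by name. Members and lists were chosen with earlier results of these data known. Promoter windows were read from RefSeq.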

Additional observations from a re-analysis of the deposited data

Results flagged for a closer look

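A difference between the lines in the response to R1881 with siSCR (22Rv1 minus LNCaP:C4-2, log2) passed edgeR's test of the difference for 10 members. Of signalling genes these were IRF1 at 1.75, JAK1 at 0.73 (adjusted p = 0.0092) and STAT2 at -0.39 (adjusted p = 0.022). Of the membrane-bound entry inhibitors they were IFITM2 at -0.84 (adjusted p = 0.00015) and IFITM3 at -0.58 (adjusted p = 0.0093). The others were IFI35 at 1.22, BST2 at -0.997, SP100 at -0.83 (adjusted p = 0.028), HERC6 at -1.81 and PARP9 at 0.43 (adjusted p = 0.044). IRF1, IFITM2, IFITM3, IFI35, BST2 and HERC6 passed in all alternatives run. The JAK1 call was lost without LNCaP:C4-2 siSCR R1881 replicate 1, where its difference was 0.52. PARP9 was lost in 10 of 12 fits that left out 1 library and with DESeq2, RLE size factors, no filter and both set-apart libraries left out. STAT2 was lost in 2 of the 12 and with library size alone and no filter, where its adjusted p reached 0.14, and SP100 in 3 and with no filter.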

How the results depend on the processing

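No called member value changed sign in any alternative run. For siMETTL3 in LNCaP:C4-2 with vehicle, where 0 members were called, DESeq2 and the fit without a filter called 1 each and the fit without both set-apart libraries called 2. With R1881, where 0 were called, the fit without a fold threshold, DESeq2 and the fit without a filter called 1 each, and the fit without both set-apart libraries called 5. Leaving out 1 library gave 0 to 5 there, with 5 only without siSCR R1881 replicate 1. In 22Rv1 with R1881, where 1 was called, there were 6 without a fold threshold (16.2% of all genes), 2 with RLE size factors and 0 with the replicate block, and 0 to 1 when 1 library was left out. Without a fold threshold R1881 with siSCR called 10 of 38 members in LNCaP:C4-2, against 24.8% of all genes, and 15 of 37 in 22Rv1, against 33%. For the line difference in the siMETTL3 effect, DESeq2 called 2 with R1881, the fit without a filter called 1 with vehicle, and the fits without both set-apart libraries called 1 with vehicle and 2 with R1881. The cause was not tested. Over all genes, siMETTL3 in LNCaP:C4-2 called 197 with vehicle and 380 with DESeq2. With R1881 it called 115, against 521 with DESeq2, 776 without a filter and 39 with the replicate block. Replicate numbers did not pair the libraries: residual correlations of same-numbered libraries averaged -0.01 in both lines, with 8 and 6 of 18 over 0.1. With about 3 counts as the floor, low members such as IFIT1 and PSMB9 were not measured finely enough to show small changes.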
